A study of Homo sapiens with 6 samples.

Results

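The genes described here are the ligands and receptors of the platelet-derived growth factor (PDGF) family: the ligand genes PDGFA, PDGFB, PDGFC and PDGFD, the receptor genes PDGFRA and PDGFRB, and PDGFRL, which encodes a receptor-like protein. They are 7 of the 23228 gene symbols counted, and all 7 passed the filter on low counts that left 14504 genes for testing. The family was picked from the response of PDGFB, which was among the largest increases after ALKBH5 knockdown. The change of PDGFB is therefore given as a description with no test, while the other 6 genes entered by family name. The cells were U2OS, an established human osteosarcoma line, grown in medium with 10% fetal bovine serum. The control group of 3 libraries received a scrambled siRNA, and the knockdown group of 3 libraries received siRNAs against ALKBH5, the enzyme that removes N6-methyladenosine (m6A) from RNA. Both groups were harvested 48 hours after lipid transfection. The labels do not name the single siRNAs, so effects of these siRNAs on other targets and effects of the knockdown cannot be told apart. Separate cultures are not stated for the replicates, and the p-values therefore cover the library-to-library spread alone, which could be technical.

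PDGFs are secreted dimers that bind receptor tyrosine kinases on mesenchymal cells such as fibroblasts, pericytes, smooth muscle cells and osteoblast precursors. PDGFA and PDGFB chains are cut by furin-like convertases before secretion, whereas PDGFC and PDGFD carry an additional CUB domain that plasminogen activators and related proteases remove outside the cell. PDGFRA binds the A, B and C chains and PDGFRB binds chiefly the B and D chains. Both receptors signal through phosphatidylinositol 3-kinase, phospholipase C gamma, SRC kinases and the RAS-MAPK cascade. Serum is itself a source of PDGF.

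Because related genes can share reads, the stretches in which family members are most alike are shown first. The PDGFB and PDGFA coding sequences share a run of 15 bases, in capitals below, inside the growth factor domain, and the PDGFRB and PDGFRA coding sequences share a run of 23 bases at the start of the kinase activation loop. Both ligand stretches lie in exon 4 of their transcripts (chr22:39231632-39231726 and chr7:510819-510913, minus strand). Both receptor stretches lie in exon 18 (chr5:150120891-150120993, minus strand, and chr4:54285858-54285960, plus strand). Positions and sequences are from GENCODE 29 on GRCh38, a later build than the hg19 of the counts. Position by position, 71 of 95 bases (74.7%) were identical in the ligand pair and 78 of 103 (75.7%) in the receptor pair.
PDGFB: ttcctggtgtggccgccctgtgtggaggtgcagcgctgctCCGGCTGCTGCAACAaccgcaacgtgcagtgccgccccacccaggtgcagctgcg
PDGFA: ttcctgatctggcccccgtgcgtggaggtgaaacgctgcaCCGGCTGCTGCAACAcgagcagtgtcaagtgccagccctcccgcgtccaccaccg
PDGFRB: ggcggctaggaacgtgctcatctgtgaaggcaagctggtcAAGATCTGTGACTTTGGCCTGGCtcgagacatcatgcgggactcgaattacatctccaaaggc
PDGFRA: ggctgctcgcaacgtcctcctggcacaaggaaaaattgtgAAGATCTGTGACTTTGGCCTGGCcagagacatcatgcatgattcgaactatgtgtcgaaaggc
Across all pairs of the 7 genes, with 1 transcript per gene, the longest shared run was those 23 bases, shorter than the 50-base reads. A read that matches one of these transcripts in full without a mismatch therefore matches none of the other 6 in full.

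Reads in genes numbered 18817181 to 23410007 per library. Levels are given as CPM, reads scaled to library size and TMM factor, and 1 CPM corresponded to 19.0 to 24.0 reads. ALKBH5, the targeted gene, stood at 138, 148 and 143 CPM in the scrambled libraries and at 19.4, 16.2 and 15.7 CPM in the knockdown libraries. Expression differed widely between the groups. By edgeR's quasi-likelihood test with Benjamini-Hochberg adjustment, 61.6% of the 14504 tested genes were called at an adjusted p below 0.05, 30.8% as higher and 30.8% as lower, and the groups did not overlap in CPM in 67.4%. The osteosarcoma label was checked against osteoblast markers. The collagen gene COL1A1 (1526 ± 38.3 CPM in the scrambled group) and the bone transcription factor gene RUNX2 (25.3 ± 4.23 CPM) were present (SD, n = 3), while IBSP had 0 reads in all 6 libraries and SP7 and BGLAP had at most 2 reads in any library.

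Among the 6 genes that entered by name, PDGFC was lower and PDGFRL was higher after ALKBH5 knockdown, and PDGFA, PDGFD, PDGFRA and PDGFRB were not called. The groups did not overlap in CPM in 4 of the 7 genes, PDGFA, PDGFB, PDGFC and PDGFRL, beside the 67.4% of all tested genes given above. Because the contrast chose the family, nothing is read from these counts.

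**Figure D1:**
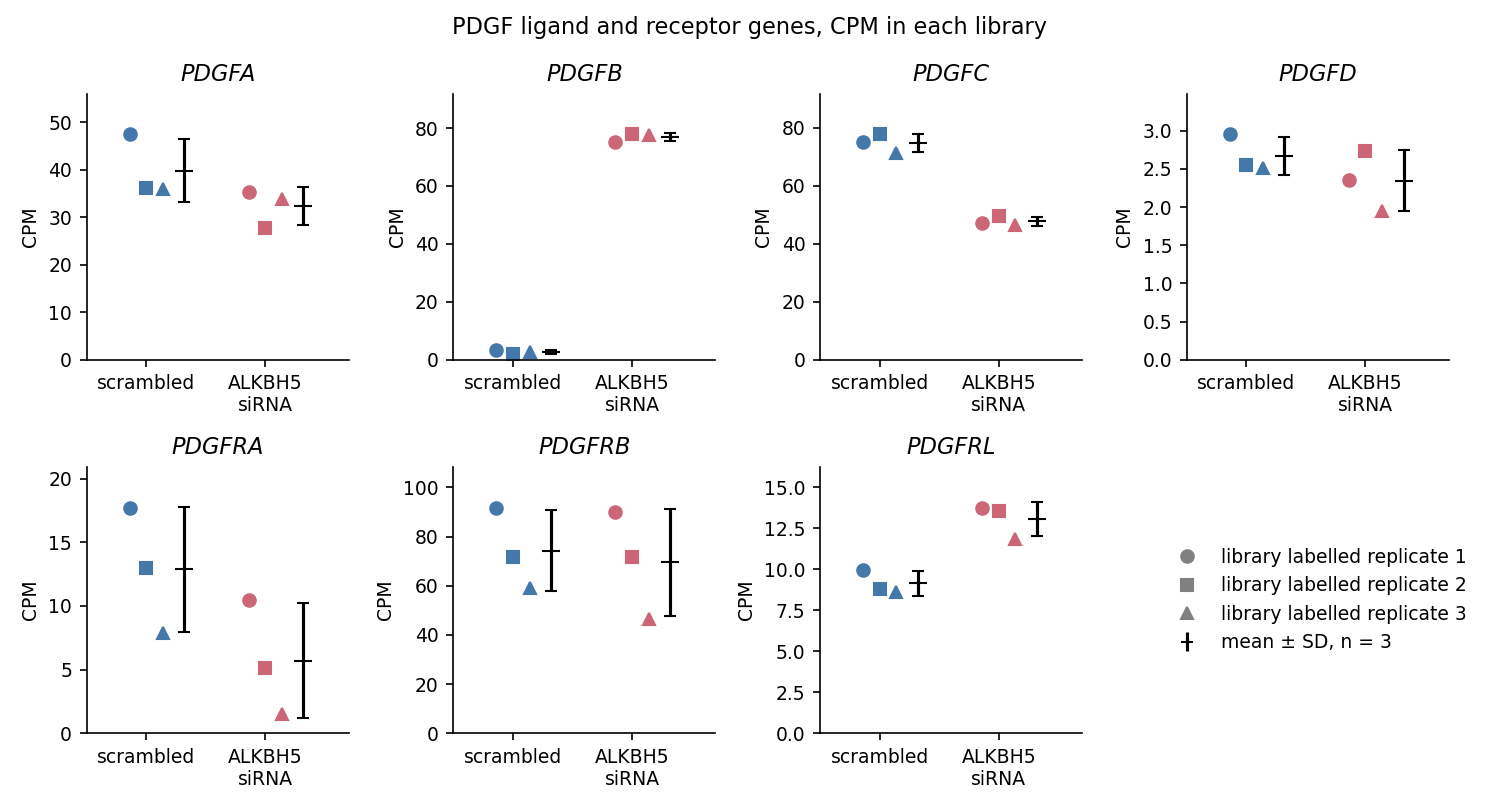
CPM of each of the 7 genes (y axis, linear and starting at 0) in the 3 scrambled and 3 ALKBH5 siRNA libraries, with 1 point per library shaped by its replicate number and the mean ± SD (n = 3). PDGFB lies at 3.33, 2.11 and 2.72 CPM in the scrambled and 75.3, 77.9 and 77.7 CPM in the knockdown libraries, and PDGFRA and PDGFRB spread widely within both groups.

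PDGFB encodes the B chain, which binds both receptors and in tissue recruits pericytes to new vessels. It had 80, 44 and 52 reads in the scrambled libraries and 1472, 1481 and 1517 reads in the knockdown libraries, that is 3.33, 2.11 and 2.72 CPM against 75.3, 77.9 and 77.7 CPM. Every knockdown library was far above every scrambled library. The highest library exceeded the lowest 1.58-fold with scrambled and 1.03-fold with ALKBH5 siRNA. The mean went from 2.72 ± 0.608 to 77.0 ± 1.43 CPM (SD, n = 3), a 28.0-fold higher level with a log2 fold change of 4.81 (SE 0.14). When each library was left out in turn, the log2 fold change ranged from 4.65 to 4.99. In bulk RNA, a change in the number of cells expressing a gene and a change in RNA per cell cannot be told apart.

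PDGFC encodes a CUB-domain ligand for PDGFRA. Its level was 75.1, 77.8 and 71.4 CPM in the scrambled libraries and 47.2, 49.4 and 46.3 CPM in the knockdown libraries. The groups were well apart and each was tight. PDGFC fell from 74.8 ± 3.19 to 47.7 ± 1.57 CPM (SD, n = 3), 1.57-fold lower, with a log2 fold change of −0.65 (SE 0.08, adjusted p = 2.9e-05). It did not pass when tested against a change of at least 1.5-fold with glmTreat (adjusted p = 0.25), and over all alternatives the adjusted p ranged from 1.5e-10 to 0.25.

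PDGFA encodes the A chain, a ligand of PDGFRA. It stood at 47.5, 36.1 and 35.8 CPM in the scrambled libraries and at 35.3, 27.8 and 33.9 CPM in the knockdown libraries. The groups did not overlap, but the lowest scrambled library and the highest knockdown library were nearly level. The log2 fold change was −0.30 (SE 0.13, unadjusted 95% interval −0.59 to −0.01, adjusted p = 0.067), so PDGFA was not called. It was called without ALKBH5 siRNA replicate 1 (log2 fold change −0.37, adjusted p = 0.049), while without scrambled replicate 1 the log2 fold change was −0.16 (adjusted p = 0.33). Over all alternatives the adjusted p ranged from 0.014 to 1.00.

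PDGFD encodes the other CUB-domain ligand, which binds PDGFRB. It had 71, 53 and 48 reads in the scrambled and 46, 52 and 38 reads in the knockdown libraries, or 2.96, 2.55 and 2.51 CPM against 2.35, 2.74 and 1.95 CPM. The groups overlapped. No difference was detected (log2 fold change −0.19, SE 0.22, 95% interval −0.68 to 0.30, adjusted p = 0.48).

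**Figure D2:**
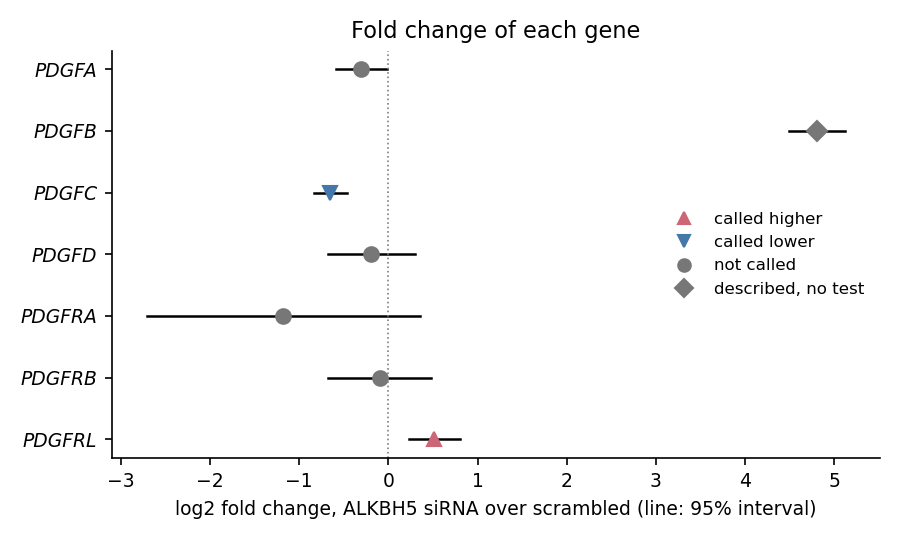
Log2 fold change of ALKBH5 siRNA over scrambled siRNA (x axis) for each gene (rows), with lines for unadjusted 95% intervals from the fit and symbols for the call. PDGFB stands at 4.81 and is described without a test, PDGFC at −0.65 and PDGFRL at 0.51 are called, and the interval of PDGFRA, −2.71 to 0.36, is the widest of the 7.

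Levels of different genes were compared per kilobase of exon. In the scrambled group the order was PDGFC (18.0 ± 0.767 CPM per kilobase), PDGFA (16.8 ± 2.80), PDGFRB (13.0 ± 2.88), PDGFRL (4.80 ± 0.390), PDGFRA (1.63 ± 0.625), PDGFB (0.766 ± 0.171) and PDGFD (0.656 ± 0.0607), each as mean ± SD over 3 libraries. PDGFC and PDGFA, PDGFA and PDGFRB, and PDGFB and PDGFD overlapped across libraries, so the order within those pairs is not fixed. In the knockdown group PDGFB came first at 21.7 ± 0.402 CPM per kilobase, above PDGFA (13.6 ± 1.68), PDGFRB (12.2 ± 3.81), PDGFC (11.4 ± 0.377), PDGFRL (6.86 ± 0.545), PDGFRA (0.726 ± 0.573) and PDGFD (0.576 ± 0.0970). PDGFA, PDGFRB and PDGFC overlapped there, as did PDGFRA and PDGFD.

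The make-up of the ligand transcripts differed accordingly. On the per-kilobase scale PDGFB was 2.36%, 1.69% and 2.28% of the sum of the 4 ligand genes in the scrambled libraries and 44.2%, 47.5% and 45.8% in the knockdown libraries. PDGFC made up 49.9% ± 4.01 of the sum with scrambled and 24.2% ± 1.29 with ALKBH5 siRNA, and PDGFA 46.2% ± 3.71 and 28.7% ± 2.99 (SD, n = 3). The sum itself was 36.1 ± 3.17 CPM per kilobase with scrambled and 47.3 ± 0.991 with ALKBH5 siRNA. These shares rest on PDGFB and are descriptions, and their gene lengths come from a later annotation than the one behind the counts.

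**Figure D3:**
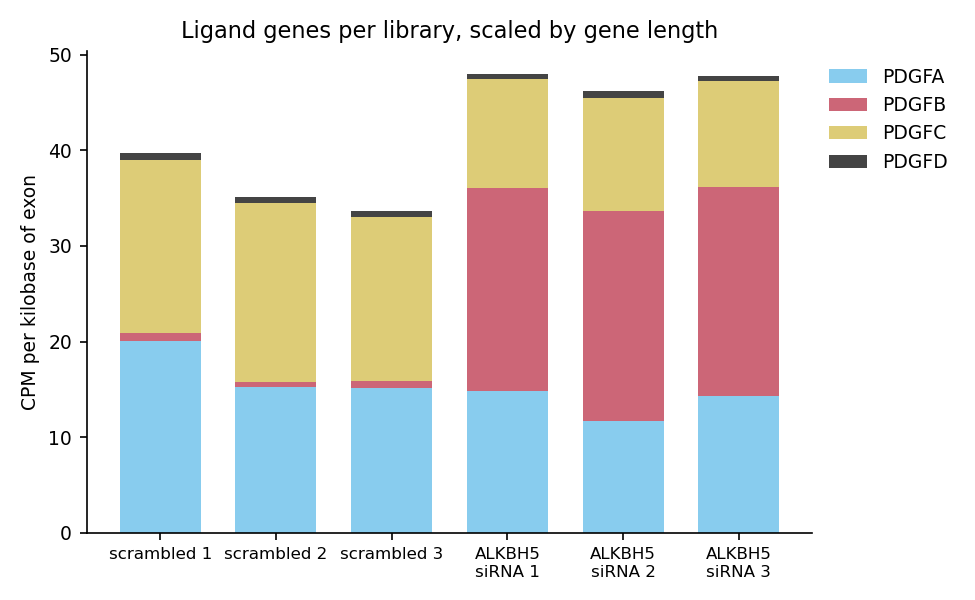
Stacked CPM per kilobase of exon (y axis) of the 4 ligand genes in each of the 6 libraries (x axis). The PDGFB segment is thin in the scrambled libraries and makes up 44.2%, 47.5% and 45.8% of the bar in the knockdown libraries, where the PDGFC segments are shorter.

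PDGFRA and PDGFRB encode the receptor tyrosine kinases of the family. PDGFRB, at 91.8, 71.7 and 59.1 CPM in the scrambled and 89.97, 71.8 and 46.6 CPM in the ALKBH5 siRNA libraries, overlapped between the groups over most of its range. Its log2 fold change was −0.10 (SE 0.25, 95% interval −0.68 to 0.48, adjusted p = 0.75). The sign turned without scrambled replicate 1 (0.08) and without ALKBH5 siRNA replicate 3 (0.13).

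PDGFRA had far fewer reads and a wider spread. It was at 17.7, 13.0 and 7.90 CPM in the scrambled libraries and at 10.5, 5.10 and 1.54 CPM in the knockdown libraries, the last resting on 30 reads. The groups overlapped, since knockdown replicate 1 lay above scrambled replicate 3. Its log2 fold change was −1.18 (SE 0.63, 95% interval −2.71 to 0.36, adjusted p = 0.15), so it was not called. Without ALKBH5 siRNA replicate 1 it was called (log2 fold change −1.96, adjusted p = 0.025), and without ALKBH5 siRNA replicate 3 the log2 fold change was −0.73 (adjusted p = 0.16). A fit without robust moderation also called it (adjusted p = 0.049), and over all alternatives the adjusted p ranged from 0.00086 to 0.42.

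Both receptor genes varied between libraries of the same group far more than most genes of similar abundance. In each group the library labelled replicate 1 had the highest and the one labelled replicate 3 the lowest level of both receptors. The highest library exceeded the lowest 2.24-fold for PDGFRA with scrambled and 6.83-fold with ALKBH5 siRNA, and 1.55-fold and 1.93-fold for PDGFRB. The pooled within-group SD of log2 CPM was 1.05 for PDGFRA, in rank 4 from the largest among 2790 tested genes within 1 log2 CPM of its abundance, whose median was 0.177. For PDGFRB it was 0.408, in rank 27 among 4965 such genes with a median of 0.110. PDGFC, in contrast, had a within-group SD of 0.0550 beside a median of 0.113. PDGFB (0.225 beside 0.122) and PDGFA (0.209 beside 0.124) were also above the median of genes of similar abundance. PDGFD (0.189 beside 0.287) and PDGFRL (0.115 beside 0.166) were below it. Abundance was averaged over both groups. PDGFB was at 2.72 CPM with scrambled and 77.0 CPM with ALKBH5 siRNA, so no library had its averaged abundance. Nothing is read from the place of PDGFB among those genes. The ratio of PDGFRB to PDGFRA CPM within a library was 5.18, 5.53 and 7.48 with scrambled and 8.58, 14.1 and 30.3 with ALKBH5 siRNA, without overlap. This ratio was not among the planned results. The share of other gene pairs without overlap was not computed, so nothing is read from it. A2M, which encodes a secreted protease inhibitor that binds PDGF, had the same order of libraries (65.8, 26.5 and 16.1 CPM and 49.7, 25.6 and 9.68 CPM), as did HAS2, a hyaluronan synthase gene (62.1, 49.3 and 32.2 CPM and 24.5, 17.0 and 11.2 CPM). A2M and HAS2 were singled out after their values were seen, and how many tested genes have this order was not counted. HAS2, also counted below among the genes responding early to PDGF, was called lower (adjusted p = 0.0059). A2M was not called (adjusted p = 0.72). What sets this difference between libraries was not tested.

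**Figure D4:**
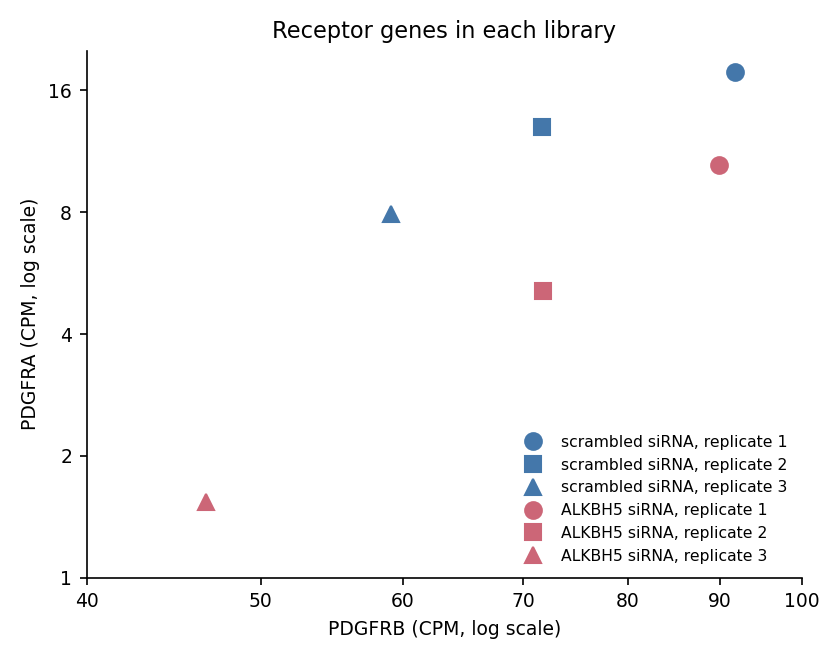
PDGFRA (y axis) against PDGFRB (x axis), both in CPM on log scales, with 1 point per library coloured by group and shaped by replicate number. In each group the replicate 1 library is at the upper right and the replicate 3 library at the lower left, and each knockdown point lies below the scrambled point of the same number on the PDGFRA axis.

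The start regions of the receptor genes are printed because both receptors varied together between libraries, and that of PDGFA because the levels of factors described at it were measured. RefSeq windows on GRCh38.p14, reaching from 250 bases before to 50 bases after a start, were matched by symbol for 4 of the 7 genes (8 windows). Capitals mark exact matches on either strand to CCAAT (the CCAAT box, in 34.6% of all 35116 windows), GGGCGG (the GC box, in 45.0% of them) and GCGGGGGCG (an EGR1 site, in 5.07%), and an EGR1 site can overlap a GC box. The PDGFRB window (chr5:150155796-150156095, minus strand) held 1 CCAAT box and 2 GC boxes. Of the 2 PDGFRA windows, the first (chr4:54229043-54229342, plus strand) held none of the motifs and the second (chr4:54233710-54234009, plus strand) held 1 CCAAT box and 2 GC boxes. The PDGFA window shown (chr7:519797-520096, minus strand), 1 of 4, held 4 GC boxes and 2 EGR1 sites. It was chosen after the motif counts were seen: another PDGFA window also held 4 GC boxes and 2 EGR1 sites, and the other two held 0 EGR1 sites, with 1 and 5 GC boxes.
PDGFRB: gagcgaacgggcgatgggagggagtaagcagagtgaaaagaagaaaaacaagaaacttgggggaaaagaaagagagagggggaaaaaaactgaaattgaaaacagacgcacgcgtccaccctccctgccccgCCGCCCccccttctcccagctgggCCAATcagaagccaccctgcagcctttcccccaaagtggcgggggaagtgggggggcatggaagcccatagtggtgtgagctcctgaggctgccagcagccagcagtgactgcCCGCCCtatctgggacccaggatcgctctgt
PDGFRA, first window: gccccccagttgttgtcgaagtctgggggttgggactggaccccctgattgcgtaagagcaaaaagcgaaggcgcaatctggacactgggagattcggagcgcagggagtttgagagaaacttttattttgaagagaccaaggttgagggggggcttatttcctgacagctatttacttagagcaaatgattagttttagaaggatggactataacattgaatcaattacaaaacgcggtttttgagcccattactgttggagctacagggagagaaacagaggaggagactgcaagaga
PDGFRA, second window: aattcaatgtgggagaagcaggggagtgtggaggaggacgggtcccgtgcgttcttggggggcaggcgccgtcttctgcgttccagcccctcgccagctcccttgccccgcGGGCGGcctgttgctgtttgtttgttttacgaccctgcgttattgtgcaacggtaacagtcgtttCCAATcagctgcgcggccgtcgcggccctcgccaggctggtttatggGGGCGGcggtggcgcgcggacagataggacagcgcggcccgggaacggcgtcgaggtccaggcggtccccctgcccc
PDGFA: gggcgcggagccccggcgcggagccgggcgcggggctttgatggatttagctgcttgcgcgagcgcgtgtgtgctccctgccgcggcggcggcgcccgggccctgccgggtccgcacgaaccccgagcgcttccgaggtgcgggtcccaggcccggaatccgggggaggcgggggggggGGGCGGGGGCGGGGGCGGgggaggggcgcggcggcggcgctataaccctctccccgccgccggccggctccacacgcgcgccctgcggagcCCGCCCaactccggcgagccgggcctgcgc

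PDGFRL encodes a protein with similarity to the extracellular part of the receptors and no kinase. It was at 9.99, 8.79 and 8.63 CPM in the scrambled libraries and at 13.8, 13.6 and 11.9 CPM in the knockdown libraries. The groups did not overlap. The level rose from 9.14 ± 0.743 to 13.1 ± 1.04 CPM (SD, n = 3), 1.43-fold higher, with a log2 fold change of 0.51 (SE 0.13, adjusted p = 0.0050). The call held without each library in turn (adjusted p from 0.0044 to 0.028). It was lost against the 1.5-fold limit of glmTreat (adjusted p = 0.92, with all alternatives from 0.0020 to 0.92).

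GGACT is a common form of the sequence in which m6A is placed, so its copies in the coding sequence of each gene were counted on the transcript strand in GENCODE 29. PDGFB, PDGFA and PDGFD held 0 copies in 723, 633 and 1110 coding bases. PDGFC and PDGFRL held 2 each, PDGFRB 4 and PDGFRA 8 in 3267 coding bases. Per coding kilobase this was 1.93 for PDGFC, 1.78 for PDGFRL, 1.21 for PDGFRB and 2.45 for PDGFRA, beside a median of 0.966 over all coding sequences searched. At least 1 copy was in 72.4% of 19643 coding sequences, and a density at least that of PDGFRA was in 10.1%. No methylation was measured here, and these counts leave out the untranslated parts of the transcripts.

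The 5 genes whose pattern over the 6 libraries was nearest to that of PDGFB were found by Euclidean distance of log2 CPM, after subtracting the scrambled mean of each gene, among 11827 genes with a mean of 2 or more on the log2 CPM scale. They were EPPK1 (distance 1.30), the protocadherin gene PCDH1 (1.49), LOC100506394 (1.61), FLJ46300 (1.62) and TAGLN (1.67), which encodes the actin-binding protein transgelin. TAGLN was at 53.9, 57.8 and 62.9 CPM with scrambled and 741, 1016 and 864 CPM with ALKBH5 siRNA. The measure weighs the size of the change as well as its pattern over libraries. The mean was taken over both groups. With scrambled, EPPK1 (0.751 ± 0.393), PCDH1 (1.46 ± 0.979), LOC100506394 (2.98 ± 0.207) and FLJ46300 (0.771 ± 0.291 CPM) were low. With ALKBH5 siRNA they were at 21.5 ± 2.83, 26.3 ± 7.79, 46.9 ± 2.78 and 14.3 ± 3.84 CPM. They passed the cut through that group. The list was drawn from the change of PDGFB itself, so nothing is read from it.

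The relatives of the PDGF family, the vascular endothelial growth factors (VEGF) with their receptors and the other receptors of the PDGF receptor class with their ligands, changed in both directions. Of 12 tested genes 7 were higher and 4 lower, beside 30.8% and 30.8% of all tested genes, with a median log2 fold change of 0.68 against 0.01 over all genes. VEGFA, the main angiogenic factor, rose from 105 ± 6.86 to 189.9 ± 14.8 CPM. VEGFB went the other way, from 75.1, 78.2 and 89.6 CPM to 11.9, 7.42 and 12.7 CPM (log2 fold change −2.92, SE 0.17, adjusted p = 2.3e-07). VEGFC, a lymphatic growth factor, fell from 22.5 ± 3.11 to 9.80 ± 0.425 CPM. CSF1, the macrophage growth factor, rose from 21.7 ± 3.68 to 34.0 ± 2.06 CPM and FLT3LG from 1.69 ± 0.262 to 4.71 ± 0.513 CPM. The VEGF receptor gene KDR, also called lower, had 25, 22 and 20 reads in the scrambled and 2, 2 and 0 reads in the knockdown libraries. The other VEGF receptor genes were called higher. FLT4 went from 9.58 ± 1.58 to 15.8 ± 2.39 CPM (adjusted p = 0.0018) and FLT1 from 0.366 ± 0.0934 to 1.00 ± 0.246 CPM (adjusted p = 0.0051). The receptor genes KIT and FLT3 and the ligand gene FIGF had 0 reads in all 6 libraries, which allows a level of up to 0.125 to 0.158 CPM per library, counting error only.

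Of 11 tested genes that process, bind or present PDGF ligands, 6 were higher and 2 lower, where all tested genes had 30.8% and 30.8%, and the median log2 fold change was 0.23. FURIN, the convertase that cuts the A and B chains, stood at 182, 159 and 181 CPM with scrambled and 467, 453 and 545 CPM with ALKBH5 siRNA (log2 fold change 1.49, SE 0.09, adjusted p = 7.8e-08). PLAU, the urokinase that can release the active part of PDGFD, rose from 26.8 ± 1.33 to 105 ± 13.2 CPM. The co-receptor gene NRP1 rose from 90.4 ± 7.75 to 232 ± 19.4 CPM. SPARC, a matrix protein that binds the B chain, fell from 2029.5 ± 78.1 to 1428 ± 275 CPM. PLAT, the tissue plasminogen activator that activates PDGFC, was at 151 ± 11.8 and 161 ± 15.4 CPM (adjusted p = 0.40), and the other convertase genes PCSK5, PCSK6 and PCSK7 were called higher (log2 fold changes 0.94, 1.05 and 0.23). These 4 were singled out after their values were seen. Without scrambled replicate 3 the list had 1 lower gene.

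Of 25 genes that act directly at the activated receptors, 11 were called higher and 6 lower, near the 61.6% called in either direction among all tested genes (30.8% each way), with a median log2 fold change of 0.16. STAT3, a transcription factor phosphorylated after receptor activation, was at 115, 119 and 109.5 CPM with scrambled and 381, 405 and 398 CPM with ALKBH5 siRNA. STAT5B rose from 26.6 ± 2.84 to 80.01 ± 2.68 CPM and the SRC-family kinase gene YES1 from 189 ± 4.80 to 404 ± 40.9 CPM. PLCG1, which encodes phospholipase C gamma, fell from 371, 361 and 355 CPM to 129.7, 90.3 and 139 CPM (log2 fold change −1.60, SE 0.14). The adaptor gene GAB1 fell from 28.4 ± 5.03 to 16.1 ± 1.79 CPM.

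In the RAS-MAPK and AKT cascade 8 of 15 genes were higher and 3 lower, compared with 30.8% and 30.8% of all tested genes, with a median log2 fold change of 0.33. The RAS genes HRAS and NRAS rose from 20.9 ± 2.78 to 45.3 ± 1.95 CPM and from 154 ± 3.34 to 257 ± 29.5 CPM. MAPK3, which encodes the kinase ERK1, fell from 54.0 ± 2.65 to 18.8 ± 0.968 CPM, and the kinase gene above it, MAP2K2, from 84.6 ± 5.17 to 61.2 ± 7.73 CPM. The kinase gene AKT1 fell from 125 ± 14.2 to 74.3 ± 7.77 CPM.

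Among genes that limit the receptors or the cascade, 7 of 16 were higher and 2 lower, against 61.6% called in either direction among all tested genes (30.8% each way), with a median log2 fold change of 0.17. CBL and CBLB encode ubiquitin ligases that send activated receptors for degradation. CBL rose from 53.0, 52.4 and 50.6 CPM to 137, 164 and 132 CPM, and CBLB fell from 33.1, 31.0 and 26.0 CPM to 9.37, 9.63 and 8.60 CPM. The receptor phosphatase gene PTPRJ rose from 37.5 ± 1.57 to 87.9 ± 5.71 CPM and SPRED1, an inhibitor of RAS signalling, from 68.0 ± 7.64 to 114 ± 11.1 CPM, while the phosphatase gene PTPN2 fell from 64.2 ± 6.37 to 34.3 ± 2.94 CPM. Without scrambled replicate 3 the list had 4 lower genes.

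Of 18 genes known to respond early to PDGF in cultured cells, 8 were higher and 5 lower, beside 61.6% of all tested genes called in either direction (30.8% each way), with a median log2 fold change of 0.30. JUNB rose from 26.4 ± 3.50 to 82.8 ± 14.1 CPM, FOSB from 1.12 ± 0.250 to 2.96 ± 0.661 CPM and PLAUR, the urokinase receptor gene, from 85.9 ± 6.37 to 167 ± 12.4 CPM. EGR1 fell from 145, 129 and 123 CPM to 72.3, 50.0 and 53.3 CPM, FOS from 20.6 ± 2.58 to 11.2 ± 2.38 CPM and EGR2 from 4.06 ± 0.668 to 1.82 ± 0.626 CPM. Of 10 transcription factors described at PDGF gene promoters, 2 were higher and 2 lower, a smaller share than the 61.6% of all tested genes, with a median log2 fold change of 0.03. HIF1A and SRF rose from 358 ± 18.9 to 683 ± 62.9 CPM and from 78.4 ± 3.94 to 147 ± 12.6 CPM, and EGR1 and SMAD3 (190.1 ± 4.18 to 126 ± 2.37 CPM) fell.

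**Figure D5:**
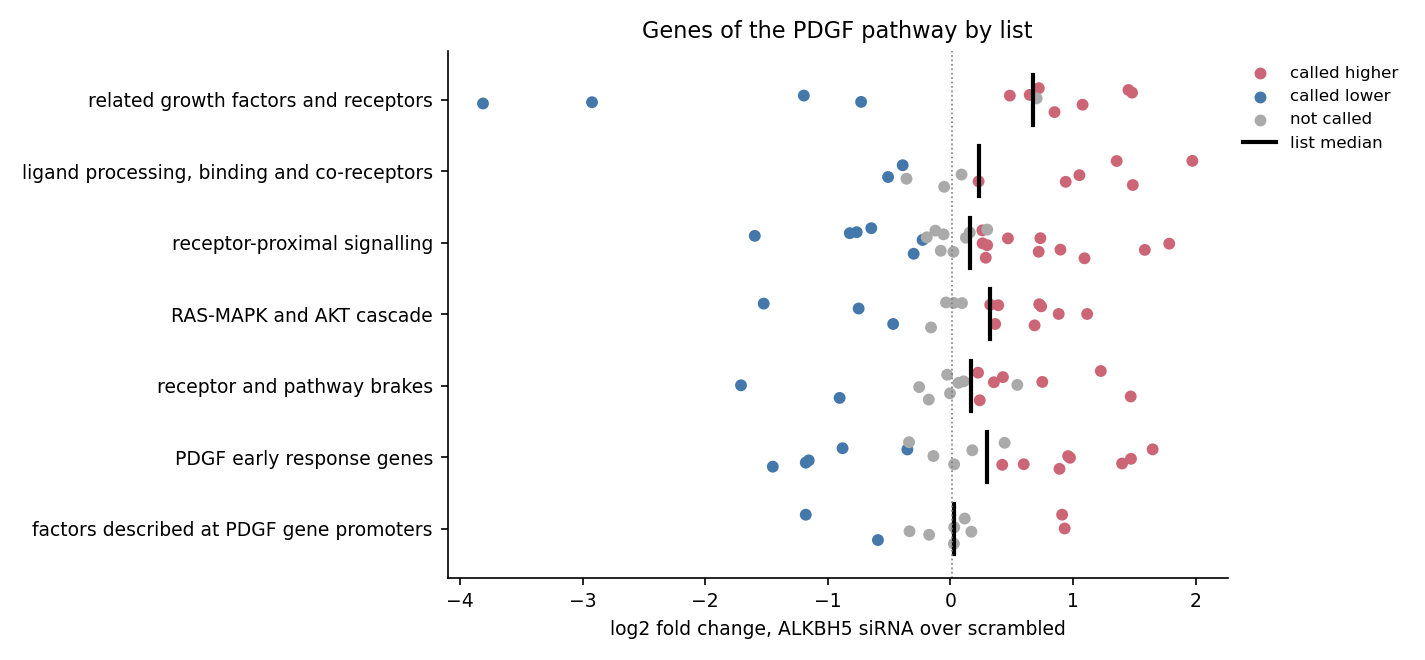
Log2 fold change (x axis) of each tested gene in the 7 pathway lists (rows), coloured by call, with a black bar at each list's median and a dotted line at the median of all tested genes (0.01). Each list holds genes called in both directions, and the medians lie between 0.03 and 0.68.

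Endothelial cells and platelets are well known sources of PDGFB, and pericytes carry PDGFRB, so their markers were measured in the same libraries. The calls counted here stand beside 30.8% higher and 30.8% lower among all tested genes. The platelet genes PF4, PPBP and GP9 had 0 reads in all 6 libraries. The summed level of 8 platelet markers was 7.20 to 10.0 CPM with scrambled and 1.84 to 3.33 CPM with ALKBH5 siRNA. Both tested markers were lower, GP6 (6.35 ± 1.57 to 0.774 ± 0.219 CPM, adjusted p = 2.4e-06) and, just under the threshold, ITGA2B (2.15 ± 0.109 to 1.25 ± 0.611 CPM, adjusted p = 0.0497). Of the endothelial markers, PECAM1 had at most 3 reads and CLDN5 at most 1 read in any library. The 10 endothelial markers summed to 50.5 to 56.8 CPM with scrambled and 53.0 to 75.8 CPM with ALKBH5 siRNA, most of it from EGFL7, and of 6 tested markers 2 were higher and 1 lower. Those higher were EGFL7 (44.6 ± 2.32 to 61.3 ± 12.0 CPM, adjusted p = 0.0098) and ROBO4 (0.565 ± 0.282 to 1.31 ± 0.529 CPM, adjusted p = 0.022), and the one lower was the von Willebrand factor gene VWF (5.62 ± 0.986 to 0.857 ± 0.470 CPM, adjusted p = 1.5e-05). The 11 pericyte and smooth muscle markers summed to 389 to 406 CPM with scrambled and 413 to 469 CPM with ALKBH5 siRNA, and of 8 tested 5 were higher and 2 lower. MCAM (179 ± 5.71 and 230.2 ± 10.8 CPM, adjusted p = 0.00098) and NOTCH3 (116 ± 11.8 and 98.6 ± 22.6 CPM, adjusted p = 0.18) had the highest levels in that list. Besides MCAM, those higher were ACTA2 (14.7 ± 1.91 to 53.6 ± 22.3 CPM), RGS5 (2.09 ± 0.505 to 7.20 ± 0.209 CPM), ANPEP and CNN1. Those lower were KCNJ8 (10.7 ± 1.74 to 2.08 ± 0.359 CPM) and CSPG4 (53.8 ± 6.16 to 30.8 ± 3.91 CPM). The 10 leukocyte markers summed to 4.41 to 8.16 CPM with scrambled and 4.21 to 7.22 CPM with ALKBH5 siRNA, with 1 of 4 tested lower (PTPRC, 1.31 ± 0.390 to 0.619 ± 0.262 CPM), and AIF1 and MRC1 had 0 reads in all 6 libraries. The part of the markers that moved in the change of PDGFB was not tested.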

How the data were processed

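Polyadenylated RNA of 6 U2OS libraries was sequenced as 50-base single reads from a stranded kit, per the labels. The authors deposited whole-number read counts for each gene symbol, without scaling. Tools named in the submitters' processing notes are CASAVA 1.8.2, TopHat2, SAMtools and HTSeq, with the build hg19. Annotation and strand setting: not given in the sources used here, so reads of overlapping or antisense genes cannot be told apart. All 6 single-library files equalled the series table, and 5 summary entries of HTSeq were left out.

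Counts were fitted over the whole table with edgeR 4.0.16 in R 4.3.3 (filterByExpr, TMM, robust glmQLFit, 2-sided glmQLFTest with group as the single term, Benjamini-Hochberg over all tested genes, threshold 0.05). SEs are the absolute log2 fold change over the square root of F, and a positive change means higher with ALKBH5 siRNA. Scripts were tested on simulated data. Alternatives were RLE scaling, library totals, no filter, 1 CPM in 3 libraries, DESeq2 1.42.0, limma-voom (limma 3.58.1), no robust moderation, glmTreat, a replicate block and leaving out each library. Lengths and coding sequences came from GENCODE 29.

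The members and lists were chosen with earlier results of these data known. Named were all 7 members, ALKBH5, up to 3 called genes per direction and list with the smallest adjusted p, the 5 genes nearest to PDGFB, and the leading or undetected markers. GP6, ITGA2B, VWF, ROBO4, PTPRC, ACTA2, RGS5, ANPEP, CNN1, KCNJ8, CSPG4, FLT4 and FLT1 were added after their values were seen. Some genes that the rule picks are not reported here.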

Additional observations from a re-analysis of the deposited data

How the results depend on the processing

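The calls of PDGFC and PDGFRL and the directions of 6 of the 7 genes (not PDGFRB) held under each alternative except as given here. PDGFA was called with library totals (log2 fold change −0.37, adjusted p = 0.041) and ranged from −0.38 to −0.16 when single libraries were left out. PDGFRA was called without robust moderation (log2 fold change −1.18) and ranged from −1.96 to −0.73 with single libraries left out. PDGFRB ranged from −0.32 to 0.13, being 0.08 without scrambled replicate 1 and 0.13 without ALKBH5 siRNA replicate 3. Tested against 1.5-fold with glmTreat, 1891 genes passed as higher and 1710 as lower in place of 4471 and 4466, and PDGFC (−0.65) and PDGFRL (0.51) were not called. With glmTreat the higher calls were 3 among the related growth factors and receptors, 5 in receptor-proximal signalling, 2 in the RAS-MAPK and AKT cascade, 2 among the brakes and 4 among early response genes, and the lower calls were 0 in ligand processing, 2 in receptor-proximal signalling, 1 in the cascade and 1 among the promoter factors. With single libraries left out, lower calls ranged from 1 to 2 in ligand processing and from 2 to 4 among the brakes. Without length scaling the PDGFB share of the ligand genes in the knockdown group was 48.3%. Of 37 named pathway genes, 9 lost their call under at least 1 alternative. The cause of these changes was not tested, other than the stricter limit of glmTreat.

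With the replicate number as a block, 4865 genes were higher and 4895 lower, PDGFA (log2 fold change −0.30, adjusted p = 0.014) and PDGFRA (−1.32, adjusted p = 0.00086) were called, and no other call among the 7 genes changed. The labels do not say that the numbers mark a shared batch. Deviations from the group means correlated at 0.33, 0.058 and 0.35 between libraries of the same number, and 5 of 6 libraries correlated best with their own number, which is a hint from the data and not from the design. PDGFD rests on 38 to 71 reads per library. PDGFRA had 30 reads in 1 library, and its spread between libraries was far above that of genes of similar abundance.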

Other observations

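The protein-coding genes next to the family members on the chromosome were taken from RefSeq by order alone. Their calls stand beside 61.6% of all tested genes called in either direction (30.8% each way). Any link between the change of a neighbour and that of the family member was not tested. Beside PDGFB, CBX7, a Polycomb subunit gene, was at 58.8 ± 4.76 CPM with scrambled and 51.4 ± 4.15 CPM with ALKBH5 siRNA (adjusted p = 0.098), and RPL3, a ribosomal protein gene, at 971 ± 50.1 and 965 ± 68.0 CPM (adjusted p = 0.93). Neither was called. Beside PDGFC, which was lower with ALKBH5 siRNA, the cathepsin gene CTSO was lower too, at 5.01 ± 0.271 and 1.02 ± 0.144 CPM (adjusted p = 2.6e-06), while the glycine receptor gene GLRB was at 33.6 ± 8.30 and 36.0 ± 12.4 CPM (adjusted p = 0.78). Beside PDGFRL, which was higher, MTUS1 was higher (log2 fold change 0.45) and the amino acid transporter gene SLC7A2 lower (−0.49). Beside PDGFA, PRKAR1B was called higher (9.57 ± 1.27 and 20.8 ± 2.40 CPM) and FAM20C was not called (20.4 ± 3.35 and 27.6 ± 7.72 CPM, adjusted p = 0.072). DYNC2H1 beside PDGFD (30.7 ± 1.52 and 29.1 ± 1.55 CPM, adjusted p = 0.49) and CSF1R beside PDGFRB (0.516 ± 0.279 and 0.826 ± 0.0409 CPM, adjusted p = 0.14) were not called either (SD, n = 3 for each value). KIT beside PDGFRA and DDI1 beside PDGFD had 0 reads in all 6 libraries, and GSX2 beside PDGFRA and CDX1 beside PDGFRB did not pass the filter on low counts.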
